A study of Mus musculus with 12 samples.

Results

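The 9 genes described here, Pdgfra, Cspg4, Olig1, Olig2, Sox10, Gpr17, Bcas1, Enpp6 and Mbp, mark successive stages of the oligodendrocyte lineage. They were taken as the probe sets annotated with exactly 1 gene symbol equal to one of these names, and all 9 were among the 17467 genes tested, of 22180 named genes on the array. Pdgfra, Cspg4, Olig1, Olig2 and Sox10 were grouped as early precursor genes, Gpr17, Bcas1 and Enpp6 as genes of committed precursors, and Mbp as the myelin gene. Affymetrix arrays read the transcripts of primary neuronal cultures prepared from brains of ICR (CD-1) mouse embryos and kept in a serum-free medium, Neurobasal with B27. Drug was added at day in vitro 3 and the cells were harvested 48 h later, at day in vitro 5. There were 6 groups of 2 arrays. Amitriptyline was given at 5 µM, citalopram at 10 µM, duloxetine at 0.1 µM, imipramine at 5 µM and mirtazapine at 50 µM, and the last group was the control, for which the labels do not say what was added. Amitriptyline and imipramine are tricyclic antidepressants, citalopram blocks serotonin reuptake, duloxetine blocks serotonin and noradrenaline reuptake, and mirtazapine is an antagonist of several monoamine receptors. The labels do not say whether the 2 arrays of a group came from separate cultures, so every p-value here reflects the spread of these arrays alone, which may be technical.

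Oligodendrocytes, the myelin-forming cells of the brain, arise from dividing precursors that carry the PDGF receptor alpha and the NG2 proteoglycan. The transcription factors OLIG2, OLIG1 and SOX10 specify the lineage and drive its maturation. Precursors that leave the cell cycle pass through a stage marked by GPR17, BCAS1 and ENPP6 before they make myelin proteins such as MBP. In embryonic brain cultures such cells are a minority beside neurons.

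RefSeq promoter sequences (GRCm38.p6, 250 bases before and 50 bases from the annotated start) were available for 4 of the 9 genes, and those of Pdgfra and Olig2 are shown because these early genes set the stage at which the lineage is read. Capitals mark matches, on either strand, to the E-box CANNTG, the class of site bound by OLIG factors, to the SOX core ACAAAG, or to the TATA box, spelled here as TATAAA. The Pdgfra window lies at chr5:75152001-75152300 and the Olig2 window at chr16:91225300-91225599, both on the plus strand.
Pdgfra: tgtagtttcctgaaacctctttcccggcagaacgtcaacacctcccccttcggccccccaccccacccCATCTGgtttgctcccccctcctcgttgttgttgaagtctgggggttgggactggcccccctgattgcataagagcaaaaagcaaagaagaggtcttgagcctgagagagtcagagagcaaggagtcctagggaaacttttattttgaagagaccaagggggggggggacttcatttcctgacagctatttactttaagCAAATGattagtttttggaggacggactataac
Olig2: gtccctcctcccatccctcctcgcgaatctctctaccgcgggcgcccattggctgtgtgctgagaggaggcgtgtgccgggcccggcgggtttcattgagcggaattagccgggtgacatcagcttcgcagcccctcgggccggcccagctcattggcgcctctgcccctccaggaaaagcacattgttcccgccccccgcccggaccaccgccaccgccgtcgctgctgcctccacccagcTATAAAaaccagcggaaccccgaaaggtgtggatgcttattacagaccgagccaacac
The Pdgfra window held 2 E-boxes, starting at bases 69 and 268, and the Olig2 window held a TATA box starting at base 243. The Cspg4 and Enpp6 windows held no match to these letters, and ACAAAG was found in 0 of the 4 windows. Over all 32851 promoters of the same length, 72.3% held CANNTG, 18.7% held ACAAAG and 13.6% held TATAAA. The form of the E-box spelled CATATG, a subset of the first motif, was in 3.91% of promoters and in 0 of the 4. These matches describe letters only.

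Values are log2 RMA values, in which 1 unit is a doubling of signal, and they are compared here for the same probe set across arrays. Differences were tested with limma on all 12 arrays, and a gene was called where its p, adjusted by Benjamini-Hochberg over the 17467 genes, was under 0.05. All 16 neuron markers listed were above the low-signal filter, as were all 14 astrocyte markers, so the cultures held transcripts of both. In bulk RNA, fewer cells of a type and less RNA per cell cannot be told apart. Duloxetine replicate 2 and mirtazapine replicate 2 stood apart from the other arrays, at 32.6 and 36.4 on a first principal component that carried 52.5% of the variance, where the highest other array was at 3.94. Calls below that involve these arrays are also given without them, except those of Castor1 and Tmem176a. Without mirtazapine replicate 2 the mirtazapine calls over all genes numbered 8, and without control replicate 1 they numbered 0, against 304 with all arrays. The 5 comparisons with control share the same 2 control arrays.

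Across the lineage, amitriptyline, citalopram, imipramine and mirtazapine gave lower mean values than control for all 9 genes, and duloxetine gave higher mean values for 8, all but Mbp. Leaving out 1 array turned some of these signs. Without duloxetine replicate 2, Sox10 under duloxetine was at -0.02, while Enpp6 kept its sign at 0.02. Without control replicate 1, Pdgfra under duloxetine was at -0.19 and Olig1 at -0.05, and Enpp6 under mirtazapine at 0.02. Without control replicate 2, Cspg4 was positive under amitriptyline, citalopram and mirtazapine, Olig2 under citalopram and Gpr17 under mirtazapine. Without mirtazapine replicate 1, Cspg4 and Enpp6 were positive under mirtazapine. Olig1 fell under mirtazapine and was the only one of these 45 drug-minus-control differences to pass the test. The median difference of the 9 genes was 0.29 for duloxetine, -0.32 for amitriptyline, -0.30 for citalopram, -0.36 for imipramine and -0.31 for mirtazapine. The median over all tested genes was -0.02 for duloxetine, -0.02 for amitriptyline, -0.01 for citalopram, -0.01 for imipramine and -0.04 for mirtazapine. The test called 0 of the 9 genes for amitriptyline, citalopram and duloxetine, where 0% of all tested genes were called in each comparison. It called 0 of the 9 for imipramine (0.0286% of all genes) and 1 of the 9 for mirtazapine (1.74% of all genes). At an unadjusted p under 0.05 limma passed 4 of the 9 genes for amitriptyline (6.14% of all genes), 3 for citalopram (4.44%), 2 for duloxetine (10.0%), 6 for imipramine (4.56%) and 3 for mirtazapine (22.4%).

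Counting arrays, 7 of the 9 genes had both amitriptyline arrays below both control arrays, against 24.2% of all genes. The same held for 4 genes under citalopram (22.1% of all genes), 8 under imipramine (19.1%) and 4 under mirtazapine (30.6%). Under duloxetine 4 genes, Cspg4, Olig2, Gpr17 and Bcas1, had both arrays above both control arrays, against 15.5% of all genes. Mbp had both duloxetine arrays below both control arrays, against 18.3% of all genes. The control arrays themselves differed for these genes. Control replicate 2 was the higher one for 8 of the 9 genes, as it was for 57.9% of all genes. The gap was 1.09 log2 units for Gpr17 and 1.02 for Pdgfra, and 0.0573% and 0.0916% of tested genes had a larger gap than these. The plot of the 9 genes by array shows this spread beside the drug groups.

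**Figure D1:**
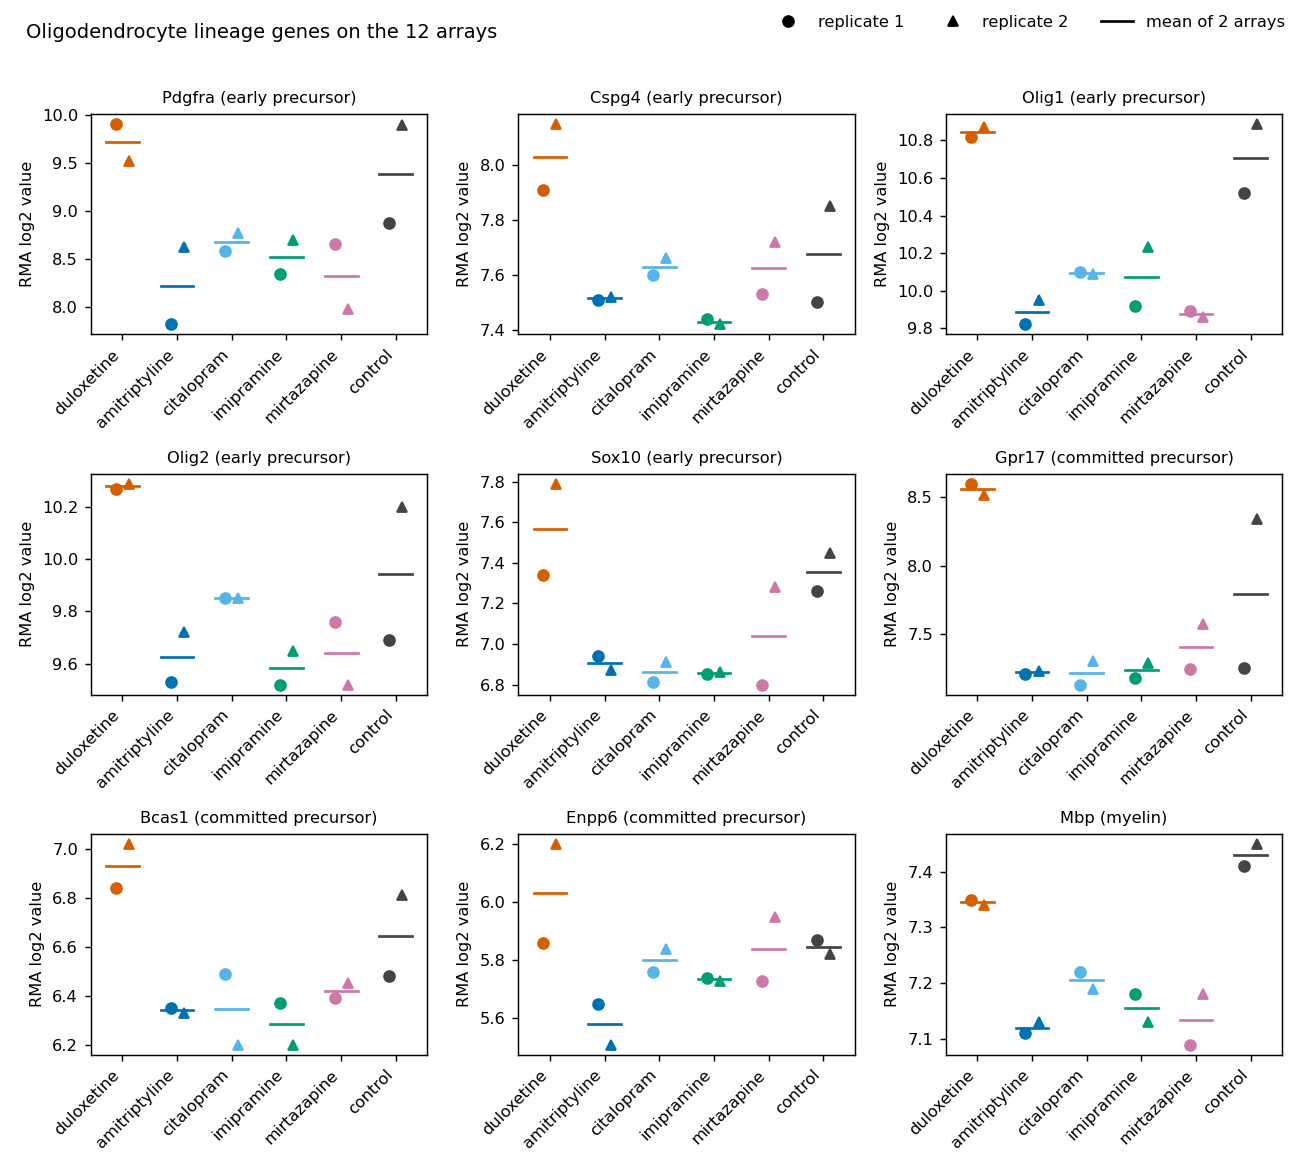
RMA log2 values of each of the 9 genes (one panel per gene, each with its own axis range) on the 2 arrays of each group, with a bar at the group mean. The duloxetine arrays lie above the arrays of amitriptyline, citalopram and imipramine in every panel, and the 2 control arrays lie far apart for Pdgfra and Gpr17.

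Among the cell-surface molecules of early precursors, Pdgfra encodes the receptor for PDGF-A, the main mitogen and survival factor of these cells. Its value was 9.91 and 9.52 on the duloxetine arrays, 7.82 and 8.63 with amitriptyline, 8.58 and 8.77 with citalopram, 8.34 and 8.70 with imipramine and 8.66 and 7.98 with mirtazapine, against 8.88 and 9.90 on the control arrays. Every array of the other 4 drugs was below both control arrays, and the duloxetine arrays overlapped with control. The difference from control was -1.17 for amitriptyline (SE 0.36, limma adjusted p = 0.4), -1.07 for mirtazapine (adjusted p = 0.146), -0.87 for imipramine (adjusted p = 0.967), -0.72 for citalopram (adjusted p = 1) and 0.33 for duloxetine (adjusted p = 0.709). The lower groups stood 1.64 to 2.24 times below the control mean, and the wide spread between arrays (pooled within-group SD 0.45) left these differences uncalled. Against control replicate 1 alone the amitriptyline difference was -0.66, and against control replicate 2 alone it was -1.68.

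Cspg4, the NG2 proteoglycan of precursors and also of pericytes, was 7.91 and 8.15 with duloxetine, 7.51 and 7.52 with amitriptyline, 7.60 and 7.66 with citalopram, 7.44 and 7.42 with imipramine and 7.53 and 7.72 with mirtazapine, against 7.50 and 7.85 on the control arrays. Both duloxetine arrays were above all 10 others, and imipramine was the only drug with both arrays below both control arrays. The duloxetine difference was 0.36 (SE 0.13, limma adjusted p = 0.492), and the other 4 drugs differed from control by -0.25 to -0.05. Without control replicate 2 the amitriptyline, citalopram and mirtazapine differences were 0.02, 0.13 and 0.13, and without duloxetine replicate 2 the duloxetine difference was 0.24.

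Of the transcription factors, Olig1, which promotes precursor maturation and myelin repair, was 10.82 and 10.87 with duloxetine, 9.82 and 9.95 with amitriptyline, 10.10 and 10.09 with citalopram, 9.92 and 10.23 with imipramine and 9.89 and 9.86 with mirtazapine, against 10.52 and 10.89 on the control arrays. All 8 arrays of amitriptyline, citalopram, imipramine and mirtazapine were below both control arrays, and the duloxetine arrays lay between them. Olig1 fell under mirtazapine, by 0.83 log2 units (SE 0.14, 95% interval -1.13 to -0.53, limma adjusted p = 0.0223), a level 1.78 times below control. Amitriptyline gave a difference of nearly the same size, -0.82, that missed the threshold (adjusted p = 0.0906), and citalopram and imipramine gave -0.61 (adjusted p = 0.399) and -0.63 (adjusted p = 0.191). The duloxetine difference was 0.14 (adjusted p = 0.668). The mirtazapine call was lost with the size at -1.02 and -0.65 when control replicate 1 or 2 was left out (adjusted p = 0.112 and 0.0903), and at -0.82 without mirtazapine replicate 2 (adjusted p = 0.13). It was also lost at an unmoved -0.83 without citalopram replicate 1 or 2 (adjusted p = 0.0526 each), and at -0.82 without both arrays that stood apart (adjusted p = 0.0511).

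Olig2, the factor that founds the lineage in the embryo, was 10.27 and 10.29 with duloxetine, 9.53 and 9.72 with amitriptyline, 9.85 and 9.85 with citalopram, 9.52 and 9.65 with imipramine and 9.76 and 9.52 with mirtazapine, against 9.69 and 10.20 on the control arrays. Both duloxetine arrays exceeded every other array, and both imipramine arrays were below control. The differences were 0.34 for duloxetine (limma adjusted p = 0.5) and -0.36 to -0.10 for the others, none of them called. Without control replicate 1 the duloxetine difference was 0.08, and without control replicate 2 the citalopram difference was 0.16. Sox10, which switches on myelin genes together with Olig factors, was 7.34 and 7.79 with duloxetine, 6.94 and 6.87 with amitriptyline, 6.81 and 6.91 with citalopram, 6.85 and 6.86 with imipramine and 6.80 and 7.28 with mirtazapine, against 7.26 and 7.45 on the control arrays. All 6 arrays of amitriptyline, citalopram and imipramine were below both control arrays, with differences of -0.45, -0.50 and -0.50 (adjusted p = 0.659, 0.857 and 0.698). Mirtazapine replicate 2 reached the control range, and the mirtazapine difference was -0.32 (adjusted p = 0.288). It was -0.56 without mirtazapine replicate 2 (adjusted p = 0.307) and -0.08 without replicate 1, and without both arrays that stood apart the same -0.56 was called (adjusted p = 0.0372). The duloxetine difference was 0.21 (adjusted p = 0.622), and -0.02 without duloxetine replicate 2.

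Of the committed precursor genes, Gpr17, a receptor that holds cells at the premyelinating stage, had the largest duloxetine difference of the 9. It was 8.60 and 8.52 with duloxetine, 7.21 and 7.23 with amitriptyline, 7.13 and 7.30 with citalopram, 7.18 and 7.29 with imipramine and 7.24 and 7.57 with mirtazapine, against 7.25 and 8.34 on the control arrays. Control replicate 2 was close to the duloxetine arrays and control replicate 1 to the other drugs, so the comparison with control depended on the array used. The duloxetine difference was 0.77 (SE 0.27, limma adjusted p = 0.492), and those of the other 4 drugs were -0.58 to -0.39 (adjusted p = 0.381 or more). Without control replicate 2 the mirtazapine difference was 0.16 instead of -0.39 (adjusted p = 0.603).

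Bcas1, a protein of early myelinating oligodendrocytes, has 2 probe sets, and the one with the higher mean was used. It was 6.84 and 7.02 with duloxetine, 6.35 and 6.33 with amitriptyline, 6.49 and 6.20 with citalopram, 6.37 and 6.20 with imipramine and 6.39 and 6.45 with mirtazapine, against 6.48 and 6.81 on the control arrays. The duloxetine arrays were above all others, and the differences were 0.29 for duloxetine and -0.36 to -0.23 for the other drugs, none called. The second probe set differed less, by 0.04 for duloxetine and -0.18 to 0.10 for the rest, with the opposite sign for mirtazapine. Enpp6, a choline phosphodiesterase of newly formed oligodendrocytes, had a mean of 5.81, close to the filter at 5.72. It was 5.86 and 6.20 with duloxetine, 5.65 and 5.51 with amitriptyline, 5.76 and 5.84 with citalopram, 5.74 and 5.73 with imipramine and 5.73 and 5.95 with mirtazapine, against 5.87 and 5.82 on the control arrays. Its differences, from -0.27 to 0.19, were not called, and the 0.19 of duloxetine was 0.02 without duloxetine replicate 2.

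Mbp, the myelin basic protein that compacts the sheath and is also transcribed from an upstream start in other cells, varied least between the arrays of a group. It was 7.35 and 7.34 with duloxetine, 7.11 and 7.13 with amitriptyline, 7.22 and 7.19 with citalopram, 7.18 and 7.13 with imipramine and 7.09 and 7.18 with mirtazapine, against 7.41 and 7.45 on the control arrays. Every drug array was below both control arrays, and the 2 duloxetine arrays were above those of the other 4 drugs. The differences were -0.31 for amitriptyline (SE 0.08, limma adjusted p = 0.235), -0.30 for mirtazapine (adjusted p = 0.0931), -0.28 for imipramine (adjusted p = 0.459), -0.23 for citalopram (adjusted p = 0.858) and -0.09 for duloxetine (adjusted p = 0.655). Its within-group SD of 0.03 was smaller than that of 99.1% of tested genes.

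**Figure D2:**
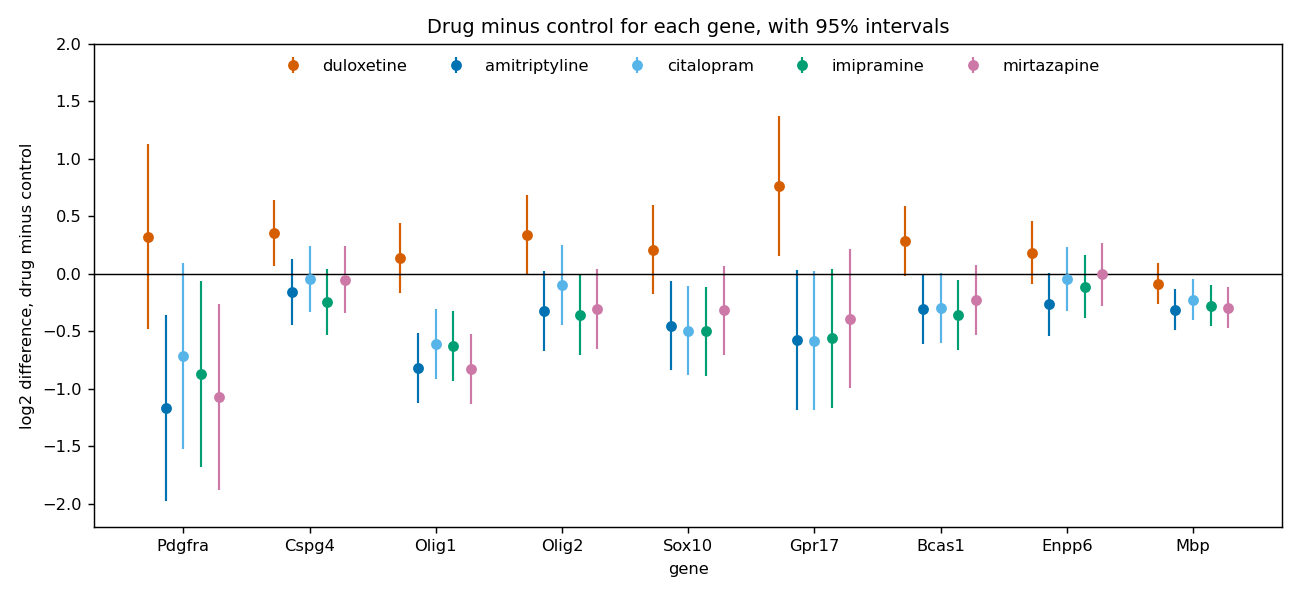
Drug minus control on the log2 scale (vertical axis) for each gene (horizontal axis), with points for the 5 drugs and bars for 95% intervals from limma. Olig1 under mirtazapine (-0.83) is the only difference that passed the test over all genes, and the duloxetine points are above 0 for every gene except Mbp.

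Set against each other by stage, the 5 early genes were on average higher than the control mean by 0.24 and 0.31 on the duloxetine arrays, and Mbp was lower by 0.08 and 0.09 on the same arrays. The early mean minus Mbp was therefore 0.32 and 0.40 with duloxetine. It was -0.37 and -0.18 with amitriptyline, -0.22 and -0.12 with citalopram, -0.35 and -0.14 with imipramine and -0.15 and -0.29 with mirtazapine, against -0.22 and 0.22 on the control arrays. The duloxetine arrays were above both control arrays on this measure, while each of the other 4 drugs overlapped with control. The committed precursor mean followed the early genes, at 0.34 and 0.49 with duloxetine and between -0.41 and -0.11 on the arrays of the other 4 drugs, against -0.23 and 0.23 on the control arrays. These stage means are descriptions, since the genes were chosen with results known.

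**Figure D3:**
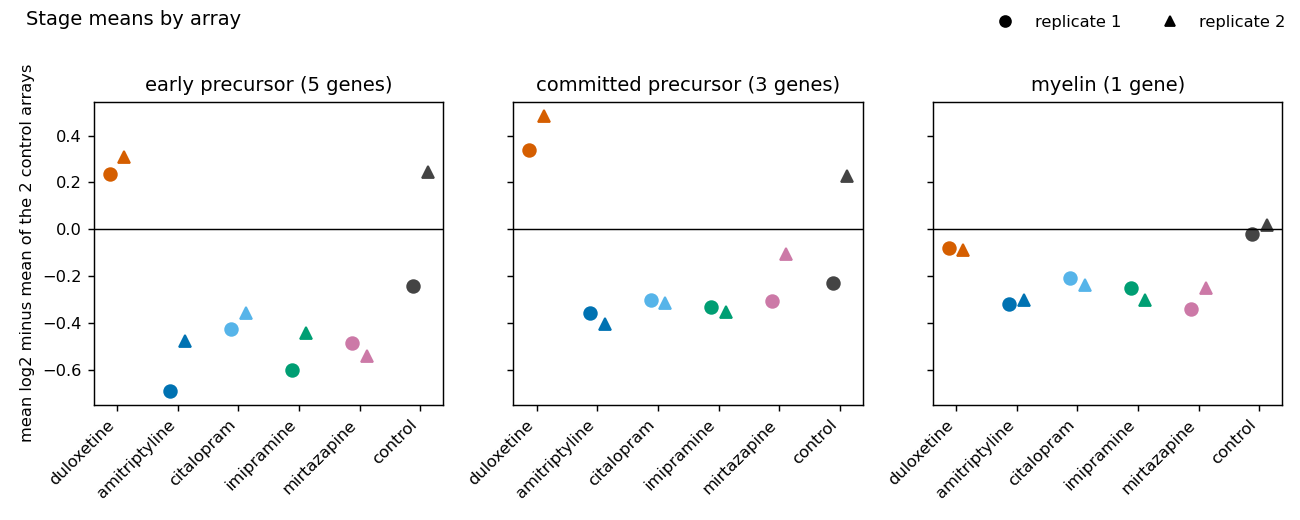
Mean log2 value of the 5 early precursor genes, the 3 committed precursor genes and Mbp, minus the mean of the 2 control arrays, for each array. Under duloxetine the early and committed means are above 0 and Mbp lies at -0.08 and -0.09, and under the other 4 drugs all points are below 0.

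Duloxetine was also compared with the mean of the 3 drugs amitriptyline, citalopram and imipramine, a comparison that uses no control array and was chosen with earlier results known. The doses differed (0.1 µM against 5 to 10 µM), so drug and dose cannot be told apart. Both duloxetine arrays were above all 6 arrays of the other 3 drugs for 9 of the 9 genes, against 7.41% of all tested genes. For Bcas1 this held for the probe set used. Its second probe set overlapped, at 5.83 and 6.01 with duloxetine and 5.87 on citalopram replicate 1, and differed by 0.17. limma called 2 of the 9, against 0.487% of all genes. Olig1 was higher with duloxetine by 0.83 (SE 0.11, 95% interval 0.58 to 1.07, adjusted p = 0.0158), a level 1.77 times that of the other drugs. Gpr17 was higher by 1.34 (SE 0.22, 95% interval 0.84 to 1.83, adjusted p = 0.0399), or 2.53 times. The other 7 genes had differences from 0.19 for Mbp (adjusted p = 0.242) to 1.24 for Pdgfra (SE 0.30, adjusted p = 0.106), and Bcas1 (0.61) and Sox10 (0.69) had adjusted p = 0.0557 and 0.0737.

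Neither call held without duloxetine replicate 2, where Olig1 was at 0.80 (adjusted p = 0.0986) and Gpr17 at 1.38 (adjusted p = 0.155), nor without both arrays that stood apart (adjusted p = 0.0796 and 0.108). The Olig1 call was also lost without amitriptyline replicate 1 (0.81, adjusted p = 0.0609) and citalopram replicate 1 or 2 (0.83, adjusted p = 0.0526 and 0.0662), and the Gpr17 call without any single array of the 3 drugs (1.31 to 1.37, adjusted p = 0.0927 to 0.114). Amitriptyline and imipramine, tricyclics given at the same 5 µM, were compared as 1 pair. limma called 0 of the 9 genes (0% of all genes), and 0 at an unadjusted p under 0.05 (1.21% of all genes). The Olig1 difference was -0.19 (95% interval -0.49 to 0.11), that of Pdgfra -0.30 (-1.10 to 0.51), that of Gpr17 -0.02 (-0.62 to 0.59) and that of Mbp -0.04 (-0.21 to 0.14). Over all 6 groups an F test called 0 of the 9, against 0.103% of all genes, with Olig1 nearest at adjusted p = 0.0572. At an unadjusted p under 0.05 it passed 8 of the 9, all but Enpp6, and 10.8% of all genes.

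In the ordered group means duloxetine was the highest group and control the second for 8 genes, and for Mbp control was the highest and duloxetine the second. Both duloxetine arrays were above both control arrays for Bcas1, Cspg4, Gpr17 and Olig2 (15.5% of all genes), and below both for Mbp (18.3% of all genes). Duloxetine and control arrays overlapped for Olig1, Pdgfra, Sox10 and Enpp6. The other 4 drugs had no common order below them. Over the 12 arrays the 36 pairs of the 9 genes had Pearson correlations of 0.41 to 0.93, with a median of 0.79. Over the 10 arrays that did not stand apart the median was 0.80. All pairs share the same arrays and group differences.

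The wider list of precursor genes had 21 tested genes of 22 listed. Under duloxetine 17 of the 21 had positive differences from control, and the negative ones numbered 17 with amitriptyline, 16 with citalopram, 19 with imipramine and 18 with mirtazapine. Over all tested genes 46.6% were positive for duloxetine and 41.7% for amitriptyline. The list holds the 5 early genes described above, and without them 12 of 16 were negative under amitriptyline (median -0.12) and 4 of 16 under duloxetine (median 0.10). The medians of the whole list were 0.11 for duloxetine, -0.15 for amitriptyline, -0.12 for citalopram, -0.16 for imipramine and -0.25 for mirtazapine. Under mirtazapine 3 fell, Olig1, Bcan and C1ql1, where 1.74% of all genes were called in either direction. Bcan, the brain proteoglycan brevican, fell by 0.78 log2 units (SE 0.13, limma adjusted p = 0.0223) to 9.30 and 8.94, against 9.85 and 9.94 in control. C1ql1, a secreted C1q-like protein, fell by 0.69 (SE 0.11, adjusted p = 0.0195) to 6.94 and 7.02, against 7.78 and 7.56 in control. Under amitriptyline they differed by -0.60 (adjusted p = 0.142) and -0.61 (adjusted p = 0.0932), and under duloxetine by -0.01 and -0.08. Without mirtazapine replicate 2 Bcan was at -0.60 and C1ql1 at -0.73, neither called (adjusted p = 0.127 and 0.104). Neither was called without control replicate 1 (adjusted p = 0.152 and 0.165), Bcan also not without control replicate 2 (adjusted p = 0.1). The other 4 comparisons with control called 0 of the 21.

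Of the 17 committed precursor genes listed 16 were tested, and 0 were called for any drug against control. Under duloxetine 13 of 16 were positive (median 0.08), and under amitriptyline 13 were negative (median -0.15). Without Gpr17, Bcas1 and Enpp6 the duloxetine median was 0.04 over 13 genes, 3 of them negative, and the amitriptyline median was -0.15 again. Against the 3 other drugs 14 of 16 were higher with duloxetine (median 0.18), and Gpr17 was the 1 called. Nkx6-2, a homeobox factor of oligodendrocytes, differed from control by 0.35 with duloxetine (limma adjusted p = 0.494), and Sema5a, a semaphorin of the lineage, by -0.31 with amitriptyline (adjusted p = 0.426).

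Of 24 myelin genes 17 were tested. The median difference from control was 0.21 for duloxetine, with 12 of 17 positive, and -0.15 for amitriptyline, 0.01 for citalopram, -0.07 for imipramine and 0.05 for mirtazapine. The list thus had a positive median under duloxetine, where Mbp itself was at -0.09. The other 16 genes had a mean log2 difference from the control mean of 0.10 on duloxetine replicate 1. It was 0.24 on duloxetine replicate 2, which stood apart, against -0.08 and 0.08 on the control arrays. Mal, a lipid-raft proteolipid, differed by 0.57 with duloxetine and Mog, a protein of the outer myelin surface, by 0.44 (limma adjusted p = 0.492 and 0.494), while Galc, the enzyme that breaks down galactosylceramide, differed by -0.46 (adjusted p = 0.492). Tspan2, a tetraspanin of the sheath, differed by -0.29 with amitriptyline (adjusted p = 0.812). Anln, anillin, which is part of myelin septin assemblies and also works in cell division, fell by 0.70 under mirtazapine (SE 0.15, adjusted p = 0.0488) and was the only 1 of the 17 called. It was at -0.57 without mirtazapine replicate 2 (adjusted p = 0.291), and not called without control replicate 1 or 2 either (adjusted p = 0.182 and 0.197).

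**Figure D4:**
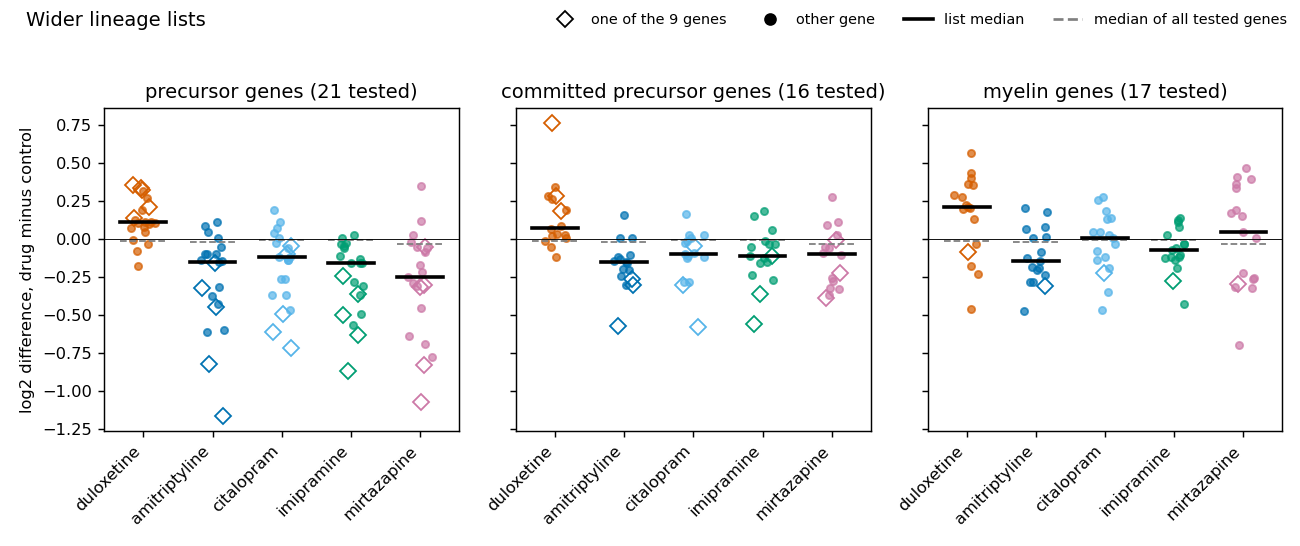
Log2 difference of each drug from control for every tested gene of the 3 wider lists, with diamonds for the 9 genes, black bars for list medians and dashed lines for the median of all tested genes. The precursor median is 0.11 under duloxetine and lies between -0.25 and -0.12 under the other drugs, and the myelin median is 0.21 under duloxetine.

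Among 23 tested ligands and receptors that act on the lineage, medians against control were between -0.16 and -0.04. Bmpr1b, a BMP receptor, fell by 0.69 under mirtazapine (SE 0.13, limma adjusted p = 0.0353), and was at -0.53 without mirtazapine replicate 2 (adjusted p = 0.221). Erbb3, a neuregulin receptor of glia, differed by 0.40 under duloxetine and Cxcr4, a chemokine receptor, by -0.29 (adjusted p = 0.492 each), and Fgfr3, an FGF receptor, by -0.39 under amitriptyline (adjusted p = 0.439). Of the 9 inhibitors of differentiation all 9 were negative under citalopram and mirtazapine, with medians of -0.15 and -0.17. Hes5, the Notch effector that holds back maturation and also a radial glia marker, was 9.73 and 9.48 with duloxetine, 8.80 and 8.99 with amitriptyline, 9.08 and 8.93 with citalopram, 8.84 and 9.01 with imipramine and 8.57 and 8.62 with mirtazapine, against 9.72 and 9.76 in control. It fell by 1.15 under mirtazapine (SE 0.12, adjusted p = 0.00681), with the call held without mirtazapine replicate 2 (-1.17, adjusted p = 0.0494) and lost without control replicate 1 (-1.17, adjusted p = 0.108). It was higher with duloxetine than with the other 3 drugs by 0.66 (SE 0.09, adjusted p = 0.0212), and by 0.79 without duloxetine replicate 2 (adjusted p = 0.0462).

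Markers of other cell types differed between the groups alongside these genes, and their part in the results was not tested. All 14 astrocyte markers were negative under amitriptyline and under imipramine, and 11 were negative under citalopram and under mirtazapine. Relative to the control mean their summed level was 1.04 and 1.03 with duloxetine, 0.786 and 0.865 with amitriptyline, 0.921 and 0.906 with citalopram, 0.835 and 0.852 with imipramine and 0.851 and 0.831 with mirtazapine, against 0.957 and 1.04 on the control arrays. All 14 were higher with duloxetine than with the 3 other drugs (median 0.33). Aqp4, a water channel of astrocytes, was the 1 of the 14 called there (0.76, limma adjusted p = 0.0219), and Aqp4 and Gfap fell under mirtazapine (adjusted p = 0.01 and 0.0214, or 0.0664 and 0.1 without mirtazapine replicate 2). All 13 cell cycle markers were negative under every drug, with medians of -0.19 for duloxetine and -0.70 to -0.49 for the others, and 9 fell under mirtazapine, against 0 without mirtazapine replicate 2 or without control replicate 1, 2 without control replicate 2, 4 without either citalopram array and 6 without either amitriptyline array. Their summed level was 0.991 and 0.806 with duloxetine and 0.673 to 0.786 with the other 4 drugs, against 1.05 and 0.951 on the control arrays.

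Cspg4 and Pdgfra are also made by mural cells and fibroblasts. The 11 mural markers summed to 1.03 and 1.25 with duloxetine and to 0.877 to 1.10 with the other drugs, against 0.983 and 1.02 in control, and 10 of 11 were positive under duloxetine (median 0.16) and 8 of 11 under mirtazapine (median 0.23). The 9 fibroblast markers other than Pdgfra summed to 1.02 and 1.07 with duloxetine and 0.821 to 0.950 with the other drugs, against 1.05 and 0.951 in control. Such a sum is weighted to the markers of highest signal. The median log2 difference of the 9 was 0.275 for duloxetine, 0.02 for amitriptyline, 0.04 for citalopram and -0.05 for imipramine. By array the mean log2 difference of the 9 from control was 0.07 and 0.28 with duloxetine and -0.04 and 0.17 with mirtazapine. That of the 11 mural markers was 0.03 and 0.37 with duloxetine. The higher value of each pair was on replicate 2, the array that stood apart. The upper quartile of values was 8.21 and 8.20 on these 2 arrays, and 8.31 to 8.37 on the others. Its part here was not tested. Under mirtazapine 7 of the 10 tested fibroblast markers, Pdgfra included, were positive, with a median of 0.28 (0.31 without Pdgfra). Dcn, a proteoglycan and the 1 of the 10 called, went the other way and fell by 1.61 (limma adjusted p = 0.0115, or 0.0791 without mirtazapine replicate 2). The 12 radial glia markers had medians of -0.24 to -0.10, and the 16 neuron markers -0.10 to 0.03, of which Slc17a7, a vesicular glutamate transporter, fell under mirtazapine (by 0.71, adjusted p = 0.0365, or 0.232 without mirtazapine replicate 2). The 8 endothelial markers had medians of 0.03 to 0.15, the 11 microglia markers -0.04 to 0.22 and the 5 Schwann cell markers other than Sox10 -0.07 to 0.13.

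The genes whose pattern over the 12 arrays was most like each of the 9 were found by Pearson correlation over all tested genes. They were Ednrb for Pdgfra (r = 0.966, and 0.956 over the 10 arrays without those that stood apart), Castor1 for Cspg4 (0.960), Tmem255b for Olig1 (0.976), Rab31 for Olig2 (0.964), Plekhb1 for Sox10 (0.937), B3gat2 for Gpr17 (0.937), Tmem176a for Bcas1 (0.963), Pbx3 for Enpp6 (0.951) and Efhd1 for Mbp (0.960). Rab31, a small GTPase, was also among the 3 most alike of Pdgfra (0.950) and Gpr17 (0.934). Tmem255b fell under mirtazapine by 0.71 (limma adjusted p = 0.0484, or 0.285 without mirtazapine replicate 2) and was higher with duloxetine than with the 3 other drugs by 0.89 (adjusted p = 0.0161, or 0.073 without duloxetine replicate 2). Over the 10 genes outside the 9 that are named here as fallen under mirtazapine, cell cycle markers aside, 0 were called without control replicate 1, 4 without control replicate 2, 4 without either citalopram array, 6 without either imipramine array, 7 without either amitriptyline array, 1 without mirtazapine replicate 2 and 7 without both arrays that stood apart. Aqp4, Hes5 and Tmem255b, higher with duloxetine than with the 3 drugs, were all lost without amitriptyline replicate 1, either citalopram array or imipramine replicate 1. Ednrb, an endothelin receptor, differed by 0.11 with duloxetine, -0.59 with amitriptyline and -0.65 with mirtazapine, none called. Castor1 and Tmem176a were also higher with duloxetine than with the 3 drugs, by 0.44 and 0.55 (limma adjusted p = 0.0481 and 0.0487). Their values with arrays left out are not given here.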

How the data were processed

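Log2 values were deposited for 41345 probe sets, and the authors produced these log2 values in Affymetrix Expression Console by RMA, which corrects background, quantile-normalizes arrays and summarises probes, per the submitters' processing notes. Neither software versions nor a build were found (not given in the sources used here). RMA values carry no counts, so depth cannot be stated and the number of arrays limits the precision (median 95% half-interval 0.28). Of the probe sets 23521 had 1 gene symbol, 1814 several and 16010 none, and 99.2% of those with 1 matched the RefSeq gene table by gene number. Where several probe sets named a gene, the one with the highest mean stood for it, and the gene was tested if that mean was at least 5.72, the 30th percentile over the array. A probe set annotated to Gpr17 and another gene, Lims2, was left out. It was 7.55 and 7.87 with duloxetine, which overlapped with 7.28 and 7.62 on the control arrays. With amitriptyline, citalopram and imipramine it was 6.82 to 7.22.

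All 12 arrays were fitted together (limma 3.58.1 in R 4.3.3, with lmFit followed by eBayes, 6 residual and 3.86 prior degrees of freedom), two-sided, with Benjamini-Hochberg adjustment over 17467 genes. The script was tested on simulated data. The 9 genes, the lists and the comparison of duloxetine with 3 drugs were chosen with earlier results of these data known. Named genes were drawn from the 9, listed genes called in any comparison, and the most alike genes. The 3 largest differences per list for duloxetine and amitriptyline against control were drawn on too. Not all genes that met this rule are described, and Fgfr2, Nrg1, Id3, Id4 and Sox5 were among those passed over. So were E2f8 (r = 0.970) and Cmtm5 (0.960), among the most alike of Olig1, and Dlgap5 (0.954), among those of Mbp. Each of these was called for mirtazapine, for duloxetine against the 3 drugs, or for both. Aqp4, Gfap, Dcn and Slc17a7, called markers, were named after their values were seen. Alternatives were a replicate block, array weights, eBayes with trend and robust, other filters, all probe sets kept, quantile normalization repeated, only the arrays compared, and arrays left out. Plots used matplotlib 3.10.9 under Python 3.11.15.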

Additional observations from a re-analysis of the deposited data

Results flagged for a closer look

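2 of the 9 genes differed between drug groups by a test of the difference itself, duloxetine against the mean of amitriptyline, citalopram and imipramine. The genes and this comparison were chosen with earlier results known, and the F test over the 6 groups called 0 of the 9. Olig1 was higher with duloxetine by 0.83 log2 units (limma adjusted p = 0.0158), and Gpr17 by 1.34 (adjusted p = 0.0399). Both duloxetine arrays were above all 6 arrays of the 3 drugs for each gene. Doses differed between the drugs, and both calls were lost without duloxetine replicate 2. Groups of 2 arrays are too small for the test of a single array far from the others.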

How the results depend on the processing

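Of 63 differences recomputed under 21 settings, none that was called changed sign, and 17 of 1309 recomputed values, none called, did. For duloxetine against the 3 drugs the test called 2 of the 9 genes, 1 with no filter, 0 with array weights, 5 after a second quantile normalization, 0 without both arrays that stood apart, and 0 to 7 with single arrays left out. For mirtazapine it called 1, 0 with array weights, 0 with only the arrays compared, 1 without both arrays that stood apart (Sox10, adjusted p = 0.0372, in place of Olig1), and 0 to 2 with single arrays left out. For amitriptyline it called 0, 1 with trend and robust, 1 with array weights, and 2 without both arrays (Olig1, adjusted p = 0.0381, and Sox10, 0.0464). The F test called 0, 1 with a 50th percentile filter (which removes Bcas1 and Enpp6), 1 with trend and robust, 1 after the second quantile normalization, and 0 to 1 with single arrays left out. Replicate numbers showed no common pairing of the samples (same-number correlations of -0.44 to 0.71 over 15 group pairs, 4 over 0.1). The 0.71 was that of duloxetine with mirtazapine, whose replicate 2 arrays both stood apart, and a batch shared by those arrays was not tested. With a replicate block the counts were 1 for mirtazapine and 2 for duloxetine against the 3 drugs. Over all genes, calls ranged from 0 to 1450 for mirtazapine (304 in the main setting) and from 2 to 3210 for duloxetine against the 3 drugs (85, of which 24 rose, against 71 of 140 after the second quantile normalization). They ranged from 0 to 2040 for duloxetine, 0 to 228 for amitriptyline, 0 to 76 for citalopram, 0 to 128 for imipramine and 0 to 349 for the F test. Where 1 array of a group was left out, the lone array was assumed to vary like the other groups. For duloxetine against the 3 drugs, the highest count among the 9 genes came from the same setting as the highest over all genes. That setting left out duloxetine replicate 1, so that replicate 2, which stood apart, was the lone duloxetine array. The causes were not tested.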
